A study of Mus musculus with 9 samples.

Results

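Lubricin (Prg4), the hyaluronan synthases Has1 and Has2, the hyaluronan receptor Cd44, the aggregating proteoglycans versican (Vcan) and aggrecan (Acan), the link protein Hapln1 and the hyaluronan-binding protein Tnfaip6 (TSG-6) were followed in auditory nerve tissue and in 2 kinds of culture made from it. These 8 genes, of 18193 measured, were taken by symbol, with all 22 probe sets that name 1 of them alone. They had been chosen by how they differed between these same samples, so their values, and the counts of how many passed the threshold, are given as a description with no p-value. The samples were 3 of neurospheres, 3 of cultured nerve cells and 3 of dissected nerve tissue, on 9 arrays of total RNA (100 ng each). The nerves were taken from CBA/CaJ mice of either sex, adults of 8 to 12 weeks, and the labels name no transgene, drug or injury. The cultured cells were dissociated with trypsin and DNase I, plated on poly-L-ornithine and fibronectin, and kept with B27 and 10% fetal bovine serum until confluent, which took 5 to 7 days. The neurospheres were such cultures moved for 12 more days to a serum-free proliferation medium with EGF at 20 ng/ml, FGF at 10 ng/ml and heparin at 2 µg/ml. Both cultures were mixed populations that were not sorted. The labels do not state whether the 3 samples of a group are separate animals or cultures, so a p-value covers the spread between these 3 samples alone, and part of that spread may be technical.

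Hyaluronan is a long unsulphated sugar chain that is spun out at the cell surface by membrane synthases. Aggrecan, versican, brevican and neurocan, together called hyalectans, bind it through a globular domain and are held in place by link proteins, and the resulting aggregates fill cartilage, loose connective tissue and the nets around neurons. Lubricin is a mucin-like glycoprotein best known from joint fluid and the surface of cartilage, where it lowers friction. In nerve, the hyalectans and link proteins Bcan, Ncan, Hapln2 and Hapln4 are known from the matrix around axons, nodes of Ranvier and synapses.

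Values are RMA signals on the log2 scale, so a difference of 1 is a doubling of the signal. A gene was counted as past the threshold at a Benjamini-Hochberg adjusted p under 0.05 (limma, over all 18193 genes) together with a fold change over 1.5. The 3 measured Y-linked genes had signals of 2.56 to 3.53 on the cultured cell arrays, where Xist was at 12.69 to 12.80. These Y-linked signals served as the level of an absent transcript. The level rests on 3 genes, and a signal above it does not by itself show that a transcript was present.

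**Figure D1:**
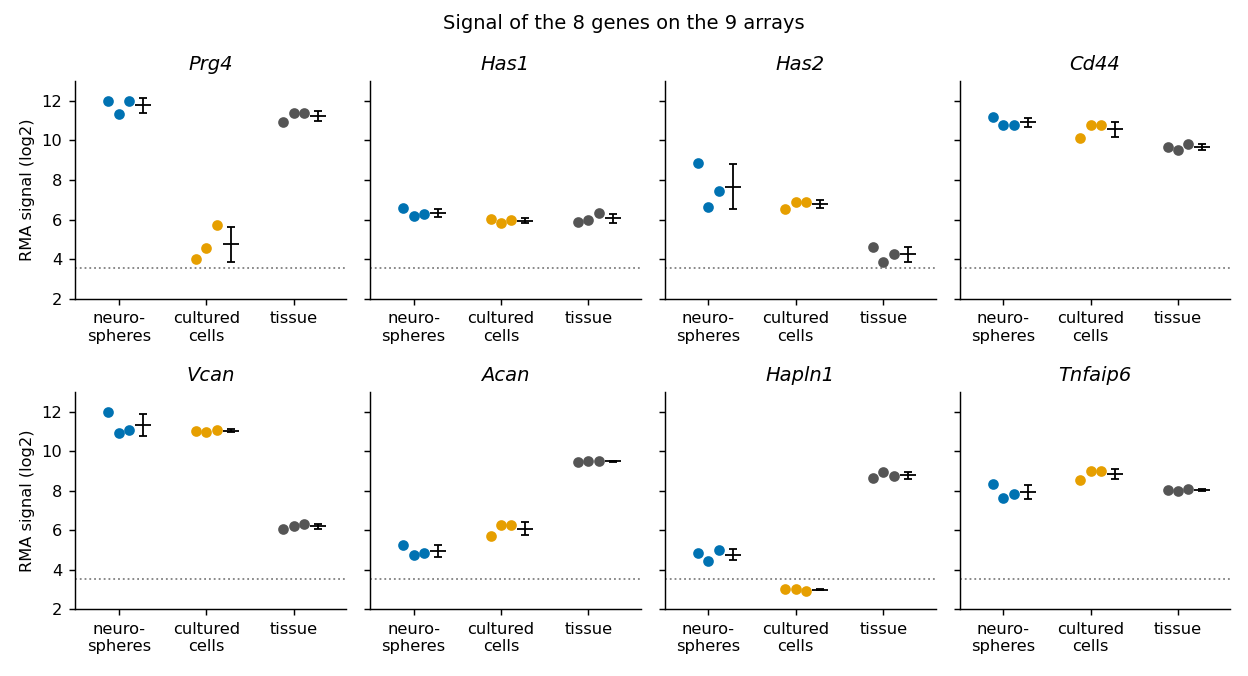
RMA signal (y axis, log2) of the 8 genes, 1 probe set each, in neurospheres (blue), cultured cells (orange) and tissue (grey). Points are the 3 arrays of a group, the black bar beside them is the mean ± SD, and the dotted line at 3.53 is the level of absent transcripts. Prg4 is low in cultured cells alone, Vcan and Has2 are high in both cultures, and Acan and Hapln1 are high in tissue.

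The promoters of Vcan, Acan and Tnfaip6 are shown because the signals of these 3 genes ran in different directions between the groups: Vcan was high in both cultures, Acan in tissue, and Tnfaip6 was highest in cultured cells. The sequences are the 250 bases before a transcript start taken from RefSeq on mouse assembly GRCm38.p6. For Vcan, as for Has1, that start is not the outermost one, and the window lies within the gene as annotated. The Hapln1 window lies partly within its gene, and the Cd44 window overlaps its gene by a few bases. Capitals mark a GC box (GGGCGG, or CCGCCC on the other strand), a CCAAT box (CCAAT, or ATTGG on the other strand) and an AP-1 site (TGANTCA). The Vcan promoter lies at chr13:89742513-89742762 on the minus strand, the Acan promoter at chr7:79052976-79053225 on the plus strand and the Tnfaip6 promoter at chr2:52037863-52038112 on the plus strand.
Vcan: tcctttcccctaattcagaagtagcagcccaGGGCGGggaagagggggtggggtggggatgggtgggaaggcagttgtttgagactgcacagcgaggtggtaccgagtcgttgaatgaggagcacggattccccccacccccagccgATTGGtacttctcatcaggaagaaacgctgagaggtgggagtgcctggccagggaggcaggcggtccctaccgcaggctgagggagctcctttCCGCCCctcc
Acan: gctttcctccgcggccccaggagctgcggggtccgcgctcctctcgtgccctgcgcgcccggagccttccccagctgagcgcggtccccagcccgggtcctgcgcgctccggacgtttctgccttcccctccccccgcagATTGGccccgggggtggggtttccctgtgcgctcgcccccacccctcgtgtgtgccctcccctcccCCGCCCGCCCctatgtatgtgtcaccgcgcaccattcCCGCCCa
Tnfaip6: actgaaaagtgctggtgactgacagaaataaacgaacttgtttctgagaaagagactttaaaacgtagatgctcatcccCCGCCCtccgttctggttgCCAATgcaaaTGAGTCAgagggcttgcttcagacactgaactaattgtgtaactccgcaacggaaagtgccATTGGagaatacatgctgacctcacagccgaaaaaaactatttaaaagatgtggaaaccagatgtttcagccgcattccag
Vcan held 2 GC boxes and 1 CCAAT box, and Acan held 3 GC boxes, of which 2 overlap, and 1 CCAAT box. Tnfaip6 held 1 GC box, 2 CCAAT boxes and 1 AP-1 site, which begins 142 bases before the start. Among 32851 promoters of the same length, searched on both strands, 32.7% held a GC box, 33.8% a CCAAT box and 6.75% an AP-1 site. A TATA box (TATAAA, in 12.4% of promoters) was in none of the 6 promoters of these genes that were at hand. The Has1 promoter held 1 CCAAT box, and those of Cd44 and Hapln1 held none of the 4 motifs. These matches are a description of letters and do not show binding.

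Lubricin set the cultured cells apart. Prg4 was at 11.99, 11.35 and 12.01 in neurospheres, 4.0, 4.55 and 5.71 in cultured cells, and 10.92, 11.37 and 11.38 in tissue. Every cultured cell array lay below every other array, by more than 5 log2 units, while the neurosphere and tissue arrays overlapped. Neurospheres exceeded cultured cells by 7.03 (SE 0.39), a 131-fold difference and the highest rise of any gene in that comparison. Cultured cells were below tissue by 88.7-fold, a log2 difference of -6.47 (SE 0.36) that ranked 51 among the falls of the 18193 genes. Leaving out single arrays, this difference was -6.95 to -6.09. The cultured cell arrays stayed above the level of absent transcripts, which alone does not show that Prg4 RNA was present. They varied more (SD 0.87) than the neurospheres (SD 0.37) or the tissue (SD 0.27).

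Neurospheres and tissue differed for Prg4 by 0.56 (SE 0.20), a 1.47-fold difference just short of the fold threshold. It crossed that threshold without neurosphere array 2 (0.77), tissue array 2 (0.63) or tissue array 3 (0.64). Signals of sex-linked genes were unevenly spread over the arrays, and the low signals of Prg4 coincided with the 3 arrays on which Y-linked genes were at the level of absent transcripts. Neurosphere array 2 had signals of both Xist, at 12.80, and the Y-linked Eif2s3y, at 6.35 against 10.60 and 10.45 on the other neurosphere arrays. Its Prg4 signal was 11.35. On neurosphere arrays 1 and 3 Xist was at 5.8 and 9.0. On tissue arrays 1, 2 and 3 Xist was at 12.0, 6.3 and 11.6, with Eif2s3y at 9.5, 10.3 and 10.0. In both comparisons with cultured cells, sex and culture cannot be told apart. In bulk samples, fewer cells of a type and less RNA per cell cannot be told apart, for Prg4 and for every gene that follows. Lubricin is also made by joint lining and cartilage surface cells. Of 6 markers of synovial lining, mesothelium and joint surface, the summed linear signal was 253 to 311 in neurospheres, 253 to 321 in cultured cells and 776 to 944 in tissue. Among these markers Clic5 averaged 4.32 in neurospheres, 4.19 in cultured cells and 7.08 in tissue, and Tspan15 6.97, 7.12 and 9.32. Htra4 averaged 5.39, 4.47 and 3.63 in the same order, with neurosphere arrays at 6.7, 4.63 and 4.83. Msln averaged 5.14, 5.94 and 5.01, Upk3b 4.91, 4.83 and 4.69, and Lrrn4 3.49, 3.32 and 3.26. The part of such cells in the Prg4 signal was not tested.

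The 3 genes whose pattern lay nearest to Prg4, by the root mean square (RMS) difference of centred log2 signals over the 9 arrays, were St8sia1 (0.73), Itih5 (1.04) and Prom1 (1.19). St8sia1, the synthase of ganglioside GD3, averaged 12.12 in neurospheres, 6.43 in cultured cells and 11.59 in tissue. Prom1, the stem cell surface protein CD133, averaged 10.16 in neurospheres, 5.09 in cultured cells and 9.21 in tissue. Itih5, whose protein belongs to the heavy chain family that binds hyaluronan, was at 13.32, 13.52 and 13.59 in neurospheres, 8.35, 8.45 and 9.05 in cultured cells, and 13.10, 13.04 and 13.10 in tissue. All 3 shared the gap at the cultured cells, and each spanned less than Prg4.

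**Figure D2:**
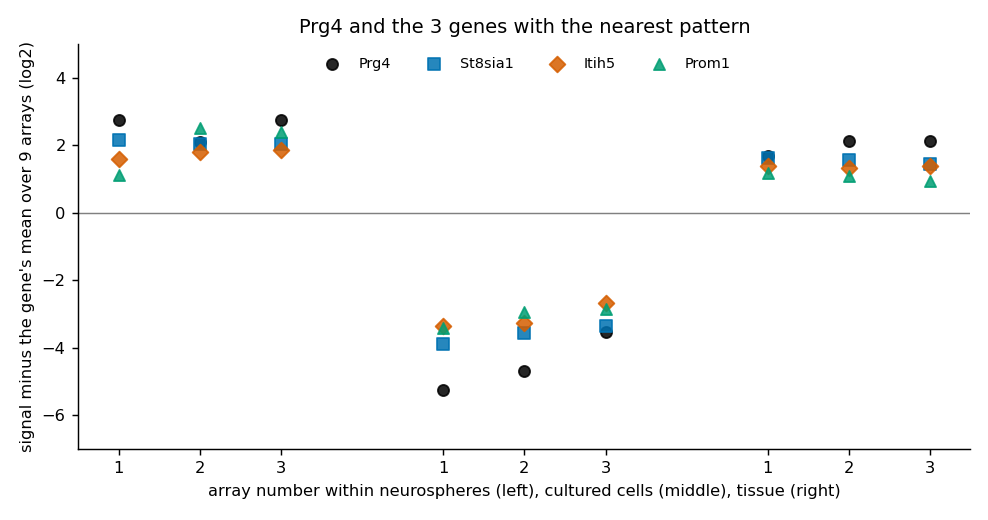
Signal of Prg4 and the 3 genes of nearest pattern on each array, as the difference from the gene's own mean over 9 arrays (y axis, log2), for neurosphere arrays (left), cultured cell arrays (middle) and tissue arrays (right). All 4 genes drop on the 3 cultured cell arrays, and Prg4 drops furthest.

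The synthases followed separate courses. Has2, the main hyaluronan synthase of connective tissue and of the embryo, was at 8.88, 6.65 and 7.44 in neurospheres, 6.55, 6.90 and 6.90 in cultured cells, and 4.62, 3.84 and 4.26 in tissue. Both cultures lay wholly above tissue, and neurosphere array 1 stood above the other neurosphere arrays. Neurospheres exceeded tissue by 3.42 (SE 0.48), or by 2.81 without neurosphere array 1, and cultured cells exceeded tissue by 2.54 (SE 0.18). Between neurospheres and cultured cells the arrays overlapped, and the difference of 0.88 (SE 0.47) was 0.27 without neurosphere array 1 and 1.38 without neurosphere array 2. A second Has2 probe set gave 8.85, 6.73 and 7.07 in neurospheres, 6.57, 7.20 and 7.26 in cultured cells, and 3.71, 4.13 and 4.09 in tissue.

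Has1, a synthase of lower activity in most cells, stayed within a range of 0.75 over all 9 arrays. It was at 6.57, 6.19 and 6.27 in neurospheres, 6.05, 5.82 and 5.96 in cultured cells, and 5.86, 6.0 and 6.33 in tissue. Neurospheres differed from tissue by 0.28 (SE 0.15), cultured cells from tissue by -0.12 (SE 0.13) and neurospheres from cultured cells by 0.40 (SE 0.12). Has3, the remaining synthase and not among the 8 genes, went the other way from Has2. It was at 4.09, 4.20 and 4.51 in neurospheres and 4.46, 4.08 and 4.21 in cultured cells, against 6.38, 6.09 and 6.10 in tissue. Its difference from tissue was -1.92 in neurospheres (adjusted p = 2.62e-06, limma) and -1.94 in cultured cells (adjusted p = 4.57e-07, limma).

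Cd44, the main cell surface receptor for hyaluronan, was higher in both cultures. Its signal was 11.19, 10.76 and 10.79 in neurospheres, 10.10, 10.79 and 10.78 in cultured cells, and 9.65, 9.50 and 9.80 in tissue. Tissue lay below every culture array, and the cultures overlapped. The differences from tissue were 1.26 (SE 0.14) in neurospheres and 0.90 (SE 0.18) in cultured cells. Another Cd44 probe set placed tissue at 8.86 to 9.18, below the cultures at 9.97 to 10.87, and a dimmer one placed it at 3.06 to 4.05, below 5.94 to 6.90. The last never rose above the level of absent transcripts (2.64 to 3.07).

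Versican and aggrecan, both large hyalectans, ran in opposite directions. Vcan was at 11.98, 10.93 and 11.05 in neurospheres, 11.04, 10.94 and 11.09 in cultured cells, and 6.08, 6.19 and 6.33 in tissue. No array of either culture came near tissue, and neurosphere array 1 was again the highest. The difference from tissue was 5.12 (SE 0.25) in neurospheres and 4.83 (SE 0.094) in cultured cells, which are 34.8-fold and 28.4-fold. Neurospheres and cultured cells overlapped and differed by 0.29 (SE 0.25), or by -0.035 without neurosphere array 1.

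Of the 8 Vcan probe sets, 3 showed this pattern at signals well above the level of absent transcripts. The other 2 of these were at 9.78 to 11.07 and 10.10 to 11.39 in neurospheres, 10.06 to 10.16 and 10.30 to 10.39 in cultured cells, and 5.42 to 5.63 and 4.22 to 4.62 in tissue. The remaining 5 stayed between 2.58 and 4.52 on every array. Among these dim probe sets, 2 were still higher in both cultures than in tissue, 1 at 3.46 to 3.63 in neurospheres and 3.65 to 3.86 in cultured cells against 2.81 to 3.02 in tissue, and 1 at 3.09 to 3.66 in neurospheres and 3.09 to 3.28 in cultured cells against 2.58 to 2.66 in tissue. Averaging all 8 probe sets cut the difference from tissue to 2.11 in neurospheres and 2.05 in cultured cells.

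Acan, the large proteoglycan of cartilage and of perineuronal nets, was at 5.28, 4.74 and 4.83 in neurospheres, 5.70, 6.27 and 6.25 in cultured cells, and 9.47, 9.50 and 9.52 in tissue. The 3 groups did not overlap, and tissue was the highest. Neurospheres differed from tissue by -4.55 (SE 0.14), a 23.4-fold lower signal, and cultured cells by -3.42 (SE 0.15), a 10.7-fold lower signal. Neurospheres differed from cultured cells by -1.13 (SE 0.19).

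Hapln1, the link protein that locks aggrecan to hyaluronan in cartilage, shared the high signal in tissue. It was at 4.85, 4.47 and 4.98 in neurospheres, 3.02, 3.04 and 2.95 in cultured cells, and 8.63, 8.96 and 8.73 in tissue. Again the groups did not overlap, but here the cultured cells were lowest, and their signals on this probe set were within the level of absent transcripts. Neurospheres differed from tissue by -4.01 (SE 0.15), a 16.1-fold difference. Set against 3.53, the highest signal of an absent transcript, Hapln1 was at least 37.9-fold higher in tissue than in cultured cells and at least 2.36-fold higher in neurospheres than in cultured cells. The other 3 Hapln1 probe sets were dimmer, at 3.09 to 4.16 in neurospheres, 2.66 to 3.75 in cultured cells and 4.19 to 5.75 in tissue. On 1 of them the cultured cells, at 3.75, 3.56 and 3.63, lay just above the level of absent transcripts, and averaging all 4 gave -1.91 in neurospheres and -2.72 in cultured cells against tissue.

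Acan and Hapln1 did not fall along with every cartilage gene. The summed linear signal of 10 cartilage markers was 3317 to 5389 in neurospheres, 13500 to 16200 in cultured cells and 12170 to 14750 in tissue. Against tissue, 2 of the 10 were higher, 5 lower and 3 did not pass in neurospheres, and 3, 4 and 3 in cultured cells. Cnmd (chondromodulin) averaged 4.72 in neurospheres, 5.18 in cultured cells and 12.03 in tissue, and Epyc (epiphycan) 10.08, 8.38 and 12.41. Col11a2 and Col9a2 were also lower in both cultures, and Col9a1 averaged 7.92, 11.84 and 10.96 in the same order. Col2a1, the main collagen of cartilage and the brightest of these markers in cultured cells, averaged 11.13 in neurospheres, 13.31 in cultured cells and 9.23 in tissue. Col2a1 was thus lower in tissue than in either culture, while Acan was highest in tissue. Neuronal markers moved with Acan and Hapln1 too: the summed signal of 8 genes was 710 to 926 in neurospheres, 627 to 674 in cultured cells and 67720 to 74700 in tissue. The part of either cell type in these 2 genes was not tested.

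**Figure D3:**
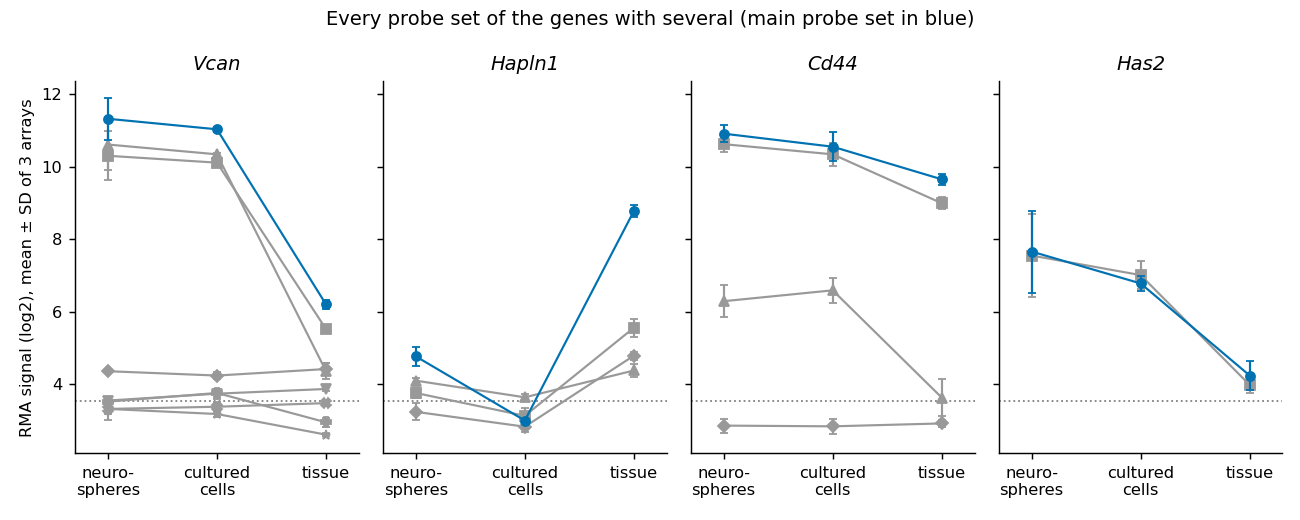
Mean ± SD of 3 arrays (y axis, RMA signal, log2) for every probe set of Vcan, Hapln1, Cd44 and Has2 in neurospheres, cultured cells and tissue. The probe set used for the gene is blue and the others are grey. Among the Vcan probe sets 3 are bright in the cultures and 5 stay between 2.58 and 4.52 on all arrays.

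Tnfaip6, an inflammation-induced protein that moves heavy chains of inter-alpha-inhibitor onto hyaluronan, was at 8.32, 7.62 and 7.85 in neurospheres, 8.56, 8.98 and 9.01 in cultured cells, and 8.01, 8.00 and 8.11 in tissue. The cultured cells lay above the other groups, which overlapped. They exceeded tissue by 0.81 (SE 0.12), while neurospheres differed from tissue by -0.11 (SE 0.16) and from cultured cells by -0.92 (SE 0.19).

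Counted by the threshold, 3 of the 8 genes were higher in neurospheres than in tissue (Has2, Cd44 and Vcan) and 2 were lower (Acan and Hapln1), where 21.7% of all genes were higher and 21.0% lower. In cultured cells, 4 were higher than in tissue (Has2, Cd44, Vcan and Tnfaip6) and 3 lower (Prg4, Acan and Hapln1), against 20.4% and 22.0% of all genes. Between neurospheres and cultured cells, 2 were higher in neurospheres (Prg4 and Hapln1) and 2 lower (Acan and Tnfaip6), against 9.0% and 8.91% of all genes. Since the genes were chosen on these comparisons, nothing is read from the counts. The comparisons of each culture with tissue share the tissue arrays.

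The RMS difference depends on a gene's own range, which was 8.01 for Prg4 and 0.75 for Has1, so it does not rank closeness between genes. Pearson r over the 9 arrays was 0.97 to 0.995 for the 3 genes nearest to Prg4 and 0.899 to 0.903 for those nearest to Has1. The patterns nearest to the other 7 genes had smaller RMS differences than those nearest to Prg4. For Vcan they were Nell1 (0.27), Nnmt (0.34) and Tfpi2 (0.40), for Has2 Grem1 (0.44), Chsy3 (0.48) and Gata6 (0.49), and for Cd44 Pgap1 (0.11), Msn (0.12) and Gpc1 (0.14). Chsy3 makes chondroitin sulphate, the chain that versican carries. For Acan they were Nap1l3, Bmp6 and Mcf2l (0.19 to 0.21), for Hapln1 Grm7 (0.18), Scg5 (0.23) and Fgf1 (0.28), and for Tnfaip6 Asns, Psat1 and Slf1 (0.12 to 0.13). Grm7 is a glutamate receptor and Scg5 a chaperone of secretory granules, both known from neurons. Asns and Psat1 make the amino acids asparagine and serine. For Has1, whose own range was small, they were Nudt3, Sectm1a and Pkd1l2 (0.10 to 0.11).

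The rest of the pathway was read from a list of 65 other genes, of which 62 were measured. In neurospheres 30 of them rose, 11 fell and 21 did not pass against tissue, in cultured cells 25 rose, 14 fell and 23 did not pass, and in neurospheres against cultured cells 15 rose, 7 fell and 40 did not pass. Of all genes, 21.7% were higher and 21.0% lower in neurospheres against tissue, and 20.4% and 22.0% in cultured cells against tissue. In neurospheres against cultured cells these shares were 9.0% and 8.91%. The counts by role that follow rest on few genes each and were not tested against these shares. The median log2 difference of the list was 0.52, 0.28 and 0.13 in these 3 comparisons, beside 0.047, -0.0091 and 0.051 over all genes.

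Both other hyalectans and 2 of 3 other link proteins fell in both cultures, as Acan and Hapln1 were lower there. Bcan (brevican), a hyalectan of the nervous system, was at 4.78, 5.16 and 5.07 in neurospheres and 5.48, 5.23 and 5.33 in cultured cells, against 9.75, 10.02 and 9.76 in tissue. Its difference from tissue was -4.84 in neurospheres (adjusted p = 7.30e-09, limma) and -4.50 in cultured cells (adjusted p = 7.10e-10, limma), and its second probe set gave -1.97 in each. For Ncan (neurocan) the differences were -3.15 in neurospheres (adjusted p = 1.44e-08, limma) and -2.79 in cultured cells (adjusted p = 1.29e-07, limma), but 1 of its other probe sets gave -0.53 and -0.61 and another gave -0.09 in cultured cells and was level with tissue in neurospheres. Hapln2, the link protein of nodes of Ranvier, differed from tissue by -3.76 in neurospheres and -3.72 in cultured cells, and on its second probe set by -1.10 and -1.17. Hapln4, of nodes and synapses, differed by -3.50 in neurospheres and -3.82 in cultured cells. Hapln3 did not pass, with differences of 0.29 and 0.06. The summed signal of 7 oligodendrocyte markers also differed, at 1104 to 1326 in neurospheres, 973 to 1071 in cultured cells and 16420 to 17010 in tissue. Cnp had the highest tissue signal of them, at a mean of 13.75, and weighs most in that sum. In each culture 6 of the 7 were lower than in tissue, and Opalin did not pass. Mog and Olig2 were at the level of absent transcripts in both cultures. The part of oligodendrocytes in the falls of hyalectans and link proteins was not tested.

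Among 5 other receptors, Hmmr and Layn rose in both cultures while Lyve1 and Stab1 fell. Hmmr, which binds hyaluronan and also the mitotic spindle, was at 8.80, 8.27 and 8.64 in neurospheres and 10.15, 10.27 and 10.13 in cultured cells, against 4.61, 4.37 and 4.53 in tissue. It rose by 4.06 in neurospheres (adjusted p = 3.62e-08, limma) and by 5.68 in cultured cells (adjusted p = 1.06e-10). Its other 4 probe sets gave smaller differences, of 0.91 to 2.50 in neurospheres and 2.85 to 4.49 in cultured cells. The summed signal of 4 proliferation markers was 2473 to 3511 in neurospheres, 9566 to 10380 in cultured cells and 76.4 to 93.0 in tissue, in the same order as Hmmr. Lyve1, of lymphatic vessels and some macrophages, differed from tissue by -1.01 in neurospheres and -0.98 in cultured cells, and on a second probe set by -2.94 and -2.38. Stab1, a scavenger receptor of macrophages and sinusoids, differed by -1.43 in neurospheres and -1.47 in cultured cells. Summed macrophage markers, 7 genes, were at 335 to 478 in neurospheres, 402 to 552 in cultured cells and 3081 to 3602 in tissue. In each culture 5 of the 7 were lower than in tissue, and Cd68 and Itgam did not pass. Csf1r had the highest tissue signal of them, at a mean of 11.14.

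Enzymes that supply the sugars of hyaluronan rose in 5 of 8 cases in neurospheres and 4 of 8 in cultured cells, with none lower. Ugdh, which makes UDP-glucuronic acid, rose by 1.56 and 1.48, and Pgm3 and Gnpnat1 of the UDP-N-acetylglucosamine route rose by 2.49 and 2.16 in neurospheres and by 2.08 and 1.56 in cultured cells. The dimmest of 4 Gnpnat1 probe sets ran the other way, at -0.50 in neurospheres and -0.53 in cultured cells. Gfpt2, at the entry of that route, rose in neurospheres by 2.28 against tissue (adjusted p = 2.21e-06, limma) and by 1.98 against cultured cells (adjusted p = 1.01e-05), and differed by 0.30 in cultured cells against tissue. Genes of hyaluronan breakdown rose as well, 5 of 7 in neurospheres and 4 of 7 in cultured cells. Cemip, which is needed for hyaluronan breakdown in fibroblasts, was at 11.95, 12.24 and 12.16 in neurospheres and 12.86, 12.90 and 13.14 in cultured cells, against 10.56, 10.57 and 10.61 in tissue. It rose by 1.53 in neurospheres and 2.38 in cultured cells, and its other 2 probe sets gave 2.42 and 0.57 in neurospheres and 4.73 and 1.08 in cultured cells. Gusb, a lysosomal glucuronidase, rose by 2.24 in neurospheres and 1.89 in cultured cells.

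The partners of Tnfaip6 included Ptx3, whose probe set of highest signal had the largest difference in the list. Ptx3, a pentraxin that Tnfaip6 binds in the hyaluronan-rich matrix around the oocyte, was at 9.79, 10.53 and 11.05 in neurospheres and 13.59, 13.69 and 13.75 in cultured cells, against 6.58, 6.18 and 6.42 in tissue. It rose by 4.06 in neurospheres (adjusted p = 2.30e-06, limma) and by 7.28 in cultured cells (adjusted p = 7.90e-11), so that neurospheres differed from cultured cells by -3.22 (adjusted p = 4.94e-05). A second, dimmer Ptx3 probe set did not share this, with -0.73 in neurospheres and 1.09 in cultured cells. The heavy chain genes Itih5 and Itih2 went the other way, with cultured cells lowest. Itih5 fell by 4.46 in cultured cells (adjusted p = 1.02e-08, limma), and its difference in neurospheres was 0.40, which did not pass the fold threshold, although the mean of its probe sets gave 1.02 and passed. Itih2 fell by 1.36 in cultured cells and rose by 0.71 in neurospheres (adjusted p = 0.00448), or 0.57 and below the fold threshold without neurosphere array 2. Itih3 had a difference of 1.16 in neurospheres against tissue (adjusted p = 0.0323), with overlapping arrays. It missed the threshold without neurosphere array 2, neurosphere array 3 or any 1 tissue array (0.81 to 1.21). It also missed with a trended robust prior (adjusted p = 0.0905, limma) and with the Student test of the study's methods.

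Several proteases that cut aggrecan and versican differed between the cultures. Of 8 genes, counting the inhibitor Timp3, 7 rose in cultured cells against tissue and none fell, and in neurospheres 3 rose and 2 fell. In neurospheres against cultured cells 1 was higher, 4 were lower, among them Timp3, and 3 did not pass. Adamts5, a chief aggrecanase of mouse cartilage, was at 8.38, 7.62 and 7.66 in neurospheres and 12.01, 11.56 and 11.68 in cultured cells, against 10.04, 10.38 and 10.24 in tissue. It fell by 2.33 in neurospheres (adjusted p = 1.03e-05, limma) and rose by 1.53 in cultured cells (adjusted p = 4.95e-06), with a difference of -3.86 between the cultures (adjusted p = 5.63e-06). Its other probe sets gave -2.26 to -1.28 in neurospheres, and 1.48 and 1.95 in cultured cells, except the dimmest, with -1.38 in cultured cells. Adamts20 did likewise, with differences of -3.28 in neurospheres, 0.90 in cultured cells and -4.18 between the cultures. Adamts4, another aggrecanase, was higher in neurospheres than in cultured cells, at 9.84, 10.00 and 9.82 there and 7.64, 7.76 and 7.89 in cultured cells, against 6.89, 6.94 and 6.97 in tissue. Its rise in cultured cells, 0.83, was 0.27 (adjusted p = 0.0801) with the mean of its probe sets. Adamts1, a versicanase, rose by 3.01 in neurospheres and 3.25 in cultured cells. Adamts9 rose by 2.38 in cultured cells, and its rise of 0.67 in neurospheres was 0.47, below the fold threshold, without neurosphere array 1 and 0.21 (adjusted p = 0.198, limma) with the mean of its probe sets.

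Chondroitin sulphate synthesis, which makes the chains of the hyalectans, had 10 of 18 genes higher and 1 lower in neurospheres, and 7 higher and 4 lower in cultured cells. Csgalnact1, which starts the chain, was at 11.02, 10.94 and 10.85 in neurospheres and 7.66, 8.09 and 8.32 in cultured cells, against 7.79, 7.66 and 7.82 in tissue. It rose in neurospheres by 3.18 against tissue (adjusted p = 1.11e-08, limma) and by 2.92 against cultured cells (adjusted p = 5.48e-06). Its difference in cultured cells against tissue, 0.26, did not pass, but the mean of its probe sets gave 0.89 and passed. The chain-building enzymes Chsy1 and Chsy3 rose by 2.09 and 3.01 in neurospheres and by 1.58 and 2.34 in cultured cells. A second, dim Chsy3 probe set gave 0.13 in neurospheres and 0.11 in cultured cells. The difference of Chsy3 between neurospheres and cultured cells, 0.67, missed the threshold without neurosphere array 1 (0.59), neurosphere array 3 (0.61) or cultured cell array 1 (0.48). Chst15, a sulphotransferase, fell by 0.92 in cultured cells, and its 0.50 in neurospheres did not pass, where the mean of its probe sets gave 0.73 and passed. Of the surface mucins listed with lubricin, Podxl differed from tissue by -2.02 in neurospheres and -2.53 in cultured cells (-0.09 and -0.16 on a second probe set), and Muc1 rose in neurospheres by 1.08.

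**Figure D4:**
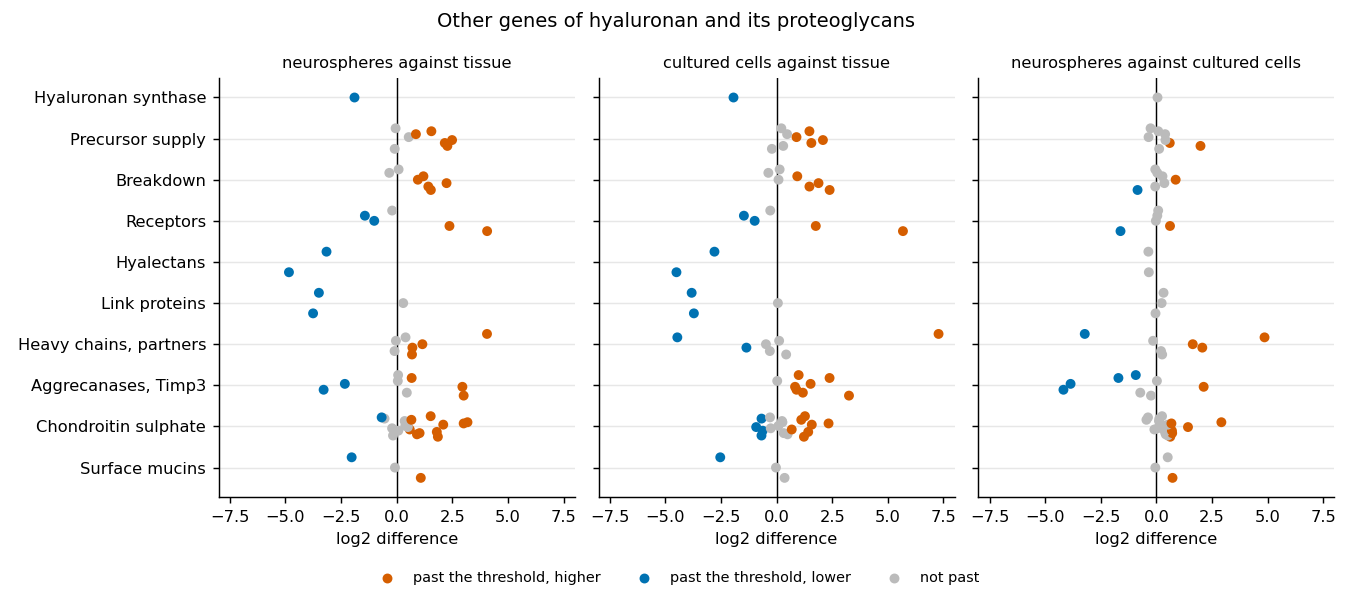
Log2 difference (x axis) of the 62 measured pathway genes other than the 8, grouped by role (y axis), for each culture against tissue (left and middle panels) and between the cultures (right panel, neurospheres over cultured cells). Orange points passed the threshold and were higher, blue points passed and were lower, and grey points did not pass. Hyalectans and link proteins hold no orange point, and the precursor supply row holds no blue point.

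The samples differed in more than culture. On the cultured cell arrays alone, the measured Y-linked genes were all at the level of absent transcripts. In both comparisons with cultured cells, sex therefore cannot be told apart from culture for any gene. Neurosphere and tissue arrays also varied in Xist among themselves, and the part of sex between those groups was not tested. The 3′ probe set of the actin control exceeded the 5′ one by a mean of 0.70 in neurospheres, 0.36 in cultured cells and 2.71 in tissue, and that of Gapdh by 0.41, 0.19 and 1.98, so signs of RNA quality moved with every difference between a culture and tissue, and their part was not tested. The summed signal of 8 fibroblast markers was 61790 to 65270 in neurospheres, 41820 to 48570 in cultured cells and 24120 to 27720 in tissue, that of 6 myelinating glia markers was 1606 to 1718, 2470 to 2997 and 46260 to 47300, and that of 5 neural stem and progenitor markers was 1894 to 3049, 962 to 1320 and 3890 to 4278, in the same order of groups. Of the 8 fibroblast markers, 7 were higher in neurospheres than in tissue and Col1a1 did not pass. In cultured cells 4 were higher than in tissue, Dcn was lower and 3 did not pass. The stem and progenitor markers did not move together either. Sox2, Msi1 and Fabp7 were lower in both cultures than in tissue. Nes was higher in both, averaging 9.93 in neurospheres, 9.07 in cultured cells and 7.54 in tissue. Prom1 passed as higher than tissue in neurospheres, with overlapping arrays, and as lower in cultured cells. Its signal on neurosphere array 1 was 9.28, within the tissue range of 9.08 to 9.32. The part of these cell types in the differences of Prg4, Has2, Cd44 and Vcan was not tested.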

How the data were processed

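Total RNA of 9 samples was hybridised to Affymetrix mouse expression arrays, and the authors deposited log2 signals made by RMA in Affymetrix Expression Console (the labels also name MAS5; versions are not given in the sources used here). The table held 45101 probe sets, of which 34945 named 1 gene, 932 named several, 9160 named none and 64 were controls. Names came from the platform annotation, with symbols brought up to date through RefSeq. For each of 18193 genes the probe set of highest mean signal was used. The 6 arrays of a comparison were fitted by lmFit and eBayes of limma 3.58.1 (R 4.3.3), with 2-sided p-values and the default prior. limma stood for the Student test of the study's methods, since 3 arrays give a poor estimate of a gene's spread. The steps were tested on simulated data. The 8 genes, the pathway and marker lists and the rule for naming genes were set with earlier results of these data known. The rule named the 8 genes, their family relatives, up to 3 genes per role and comparison with the largest difference past the threshold, and the 3 nearest patterns per gene. Some members of the lists were not analysed here. The number of arrays limits the precision.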

Additional observations from a re-analysis of the deposited data

How the results depend on the processing

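Over 15 alternatives per comparison (the mean of a gene's probe sets, no shared probe sets, another centring, no dim genes, all 9 arrays in the fit, the methods' t-test with and without adjustment, a trended robust prior, the replicate block and leaving out each array), the number of the 8 genes past the threshold was 3 to 6 for neurospheres against tissue, 5 to 7 for cultured cells against tissue and 3 to 5 for neurospheres against cultured cells. The 3 arose without the 40% of genes with the lowest mean, which removes Has1, Has2 and Hapln1 before the fit and leaves 5 of the 8. Leaving out single arrays gave 5 to 6, 7 and 4 to 5, with Prg4 and Has2 as the genes that crossed. Over the alternatives, the list of 62 other genes gave 29 to 43, 30 to 41 and 18 to 22 calls, and all genes 5941 to 7808, 5950 to 7776 and 2643 to 3369. Of 1437 repeats for single pathway genes, 29 lost a call, 5 gained one and none changed direction past the threshold. With the replicate block, 5, 7 and 4 of the 8 genes and 41, 39 and 22 of the 62 passed. The correlation r of deviations from the group mean was taken between arrays of the same replicate number. In cultured cells against tissue r was 0.069 to 0.206, and 5 of 6 arrays matched their own number best. In neurospheres against tissue r was -0.093 to -0.059, with 0 of 6. In neurospheres against cultured cells r was -0.19 to 0.04, with 1 of 6. The main fits took the groups as unpaired. Signals near 3.53 limit the fold of Hapln1 in cultured cells.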
